A study of Homo sapiens with 9 samples.

Results

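The transcripts of 10 BCL2 family genes were examined in OVCAR3 cells, an established line of high-grade serous ovarian carcinoma, after gain and loss of *CTCFL*, a germline paralog of the insulator protein gene *CTCF* that is also known as BORIS. The members were taken from a fixed list of symbols, matched to the Ensembl identifiers of the gene count matrix, and make up 10 of its 60660 genes. All 10 passed the filter on low counts and were among the 17794 genes tested. Each of 3 conditions held 3 biological replicates, and each replicate pooled 3 technical replicates. Control cells carried the LacZ plasmid pCpGfree-vitroHLacZ, and CTCFL-OE cells carried pCpGfree-vitroHBORIS, which holds the *CTCFL* reading frame, in both cases as transient transfections with 2 µg of plasmid collected after 48 h. CTCFL-KD cells came from knockdown experiments that had been published before, with an agent that is not given in the sources used here, and their RNA was obtained separately from that of the other groups. The knockdown therefore had no control of its own among these libraries, so that loss of *CTCFL* and the difference between the experiments cannot be told apart in any comparison with CTCFL-KD.

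The BCL2 family sets whether the outer membrane of the mitochondrion stays intact. The pro-survival proteins (BCL2, BCL-XL encoded by *BCL2L1*, and MCL1) bind and restrain the effectors BAX and BAK, which otherwise assemble into pores that release cytochrome c and start the caspase cascade. The BH3-only proteins (PUMA from *BBC3*, NOXA from *PMAIP1*, BIM from *BCL2L11*, BID and BAD) carry stress signals to the family, by occupying the groove of the pro-survival proteins or by activating the effectors directly. In epithelial cancers, survival commonly leans on BCL-XL and MCL1.

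What the members share is the short BH3 core, a leucine followed after 3 residues by a small residue and an aspartate. In the MANE Select coding sequences on GRCh38, codons matching this pattern were found in 10 of 10 members. There was 1 match each in 9 of them and 2 matches in *BID*. A match to this short pattern does not by itself show a BH3 core. The small residue was glycine in 8 members, with BID counted by its match at residues 90 to 95, alanine in BBC3 and serine in BAD. It was serine in the other match of BID, at residues 25 to 30. To show the shared stretch in the gene that passed the test, in the most abundant member, in an effector and in both exceptions, the coding strand is given with the 18 bases of the core in capitals between 6 bases on each side.
BCL2: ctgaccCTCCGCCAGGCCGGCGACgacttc
MCL1: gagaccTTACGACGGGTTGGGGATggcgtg
BAX: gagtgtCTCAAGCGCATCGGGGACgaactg
BBC3: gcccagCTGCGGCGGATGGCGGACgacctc
BAD: cgcgagCTCCGGAGGATGAGTGACgagttt
The core of *BCL2* lies at chr18:63318361-63318378 on the minus strand, in coding exon sequence of exon 2, and covers residues 97 to 102 of 239. The core of *MCL1* lies in exon 1 at chr1:150578877-150578894 (minus strand, residues 213 to 218 of 350). For *BAX* it lies in exon 3 at chr19:48955787-48955804 (plus strand, residues 63 to 68 of 192), for *BBC3* in exon 3 at chr19:47226591-47226608 (minus strand, residues 141 to 146 of 193) and for *BAD* in exon 3 at chr11:64271634-64271651 (minus strand, residues 114 to 119 of 168). Counts were made per gene, so the isoforms of a member, including splice forms of *BCL2L1* and *MCL1* known to have opposite functions, were summed.

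The libraries held 14332622 to 24490080 counts. As a check of the labels, *CTCFL* had 0, 1 and 0 counts in the CTCFL-KD libraries, 6, 9 and 10 in the Control libraries and 36, 34 and 72 in the CTCFL-OE libraries. The knockdown libraries together thus held a single count, too few to give a fold. CTCFL-KD replicate 1 stood apart from the other libraries. Its TMM factor was 0.775, against 0.945 to 1.09 elsewhere. Its log2 ratio to the other libraries of its group fell with transcript length (Spearman's rho of -0.546 over 9888 genes, as a description). The same rho was 0.55 and 0.50 in CTCFL-KD replicates 2 and 3, whose reference includes replicate 1, so the 3 values are not independent. It was -0.362, 0.191 and 0.183 in the Control libraries and -0.135, 0.161 and 0.07 in the CTCFL-OE libraries, so that replicate 1 had a negative value in every group. The members' fold changes in CTCFL-KD against Control are given with and without replicate 1. Mitochondrially encoded genes took 6.16 to 6.52% of the counts of Control libraries, 7.80 to 11.8% of those of CTCFL-KD and 7.40 to 14.9% of those of CTCFL-OE. The 10 markers of ovarian carcinoma epithelium summed to 5322 to 5408 CPM (counts relative to library size, scaled by TMM) over the Control libraries, 4798 to 5073 over CTCFL-OE and 9472 to 15991 over CTCFL-KD, where 7 passed the test as higher and 2 as lower. The summed levels in Control, CTCFL-OE and CTCFL-KD were 28.7 to 34.1, 25.5 to 45.0 and 38.2 to 43.7 CPM for 10 fibroblast markers, 8.71 to 9.87, 11.7 to 12.6 and 12.4 to 21.0 CPM for 6 endothelial markers, and 1.15 to 1.79, 1.19 to 2.89 and 2.90 to 4.69 CPM for 10 leukocyte markers. *COL1A2*, *COL3A1* and *DCN* had no count in Control. Single genes led these sums. *COL1A1* made up 93.7% of the mean fibroblast sum in Control and 57.3% in CTCFL-KD. *VWF* led the endothelial sum in Control (52.3%) and *KDR* in CTCFL-KD (65.5%). *CSF1R* led the leukocyte sum in Control (46.9%) and *CD14* in CTCFL-KD (54.1%). The part of these differences in the results for the members was not tested, and in bulk RNA fewer cells of a kind and less RNA per cell cannot be told apart.

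Among the members, levels in Control spanned a 512-fold range per length. In TPM (a relative transcript level, from counts divided by the length of the union of exons), the mean over the 3 Control libraries was 155 ± 7.501 (SD, n = 3) for *MCL1*, 83.1 ± 4.51 for *BCL2L1* and 73.6 ± 2.37 for *BID*. Thus 2 of the 3 pro-survival genes and 1 BH3-only gene led the order. *BAD* followed at 37.2 ± 1.42 TPM, the effector *BAK1* at 32.1 ± 1.73, *BCL2L11* at 21.3 ± 1.19 and the effector *BAX* at 20.2 ± 0.859. *BCL2L11* and *BAX* did not differ beyond their spread, and theirs was the only pair of neighbours whose ranges overlapped. *PMAIP1* lay at 9.75 ± 0.550 TPM and *BBC3* at 3.35 ± 0.224. *BCL2*, the founding member, was the lowest at 0.303 ± 0.0237 TPM, with only 26 to 29 counts per Control library, so that its Control values carry more counting error than those of any other member. The order depended on the length used. With the longest annotated transcript as the length, *BID* at 103 TPM lay above *BCL2L1* at 84.6, and *BAX* at 30.4 TPM above *BAK1* at 25.4 and *BCL2L11*.

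Few members passed the tests in either condition. In CTCFL-KD, *BCL2* was the only member that passed (adjusted p under 0.05 by edgeR's QL test, BH-adjusted over all genes tested), and it was also the only differentially expressed gene (DEG, with a log2 fold change beyond 1 as well). That is 1 of 10 members, where 38.2% of all genes tested passed and 23.2% were DEGs. In CTCFL-OE, 0 of 10 members passed at the study's threshold of 0.1 and 0 were DEGs, where 3.15% and 2.07% of all genes were. At an unadjusted p under 0.05 there was 1 member in CTCFL-OE (*MCL1*), where 17.7% of all genes had one, and 3 in CTCFL-KD (*BCL2*, *MCL1* and *BBC3*), where 48.3% did. DESeq2 called 0 members in CTCFL-OE (7.62% of genes with an adjusted p) and 2 in CTCFL-KD (31.5%). The median log2 fold change of the members was 0.07 in CTCFL-KD and -0.03 in CTCFL-OE, beside 0.08 and -0.01 over all genes tested. Both comparisons use the same Control libraries. In TMM-scaled CPM, all 3 libraries of a treated group lay outside the Control range for 3 members in CTCFL-KD (56.3% of all genes). In CTCFL-OE this held for 4 members (37.1% of all genes). On this scale the members' share was below the background in CTCFL-KD and close to it in CTCFL-OE. In TPM, all 3 CTCFL-KD libraries lay below Control for *MCL1*, *BCL2L1*, *BAX*, *BAK1*, *BID* and *BAD*, and above it for *BBC3*. All 3 CTCFL-OE libraries lay below Control in TPM for *MCL1*, *BCL2L1*, *BAX*, *BID* and *BAD*. The share over all genes was not computed in TPM. The place of a library relative to Control depended on the scale. The members' summed TPM, which has no TMM scaling, was 425 to 447 in Control, 261 to 399 in CTCFL-OE and 240 to 362 in CTCFL-KD, lowest in CTCFL-KD replicate 1. Positions of libraries below are in CPM, and TPM is given beside those that change.

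**Figure D1:**
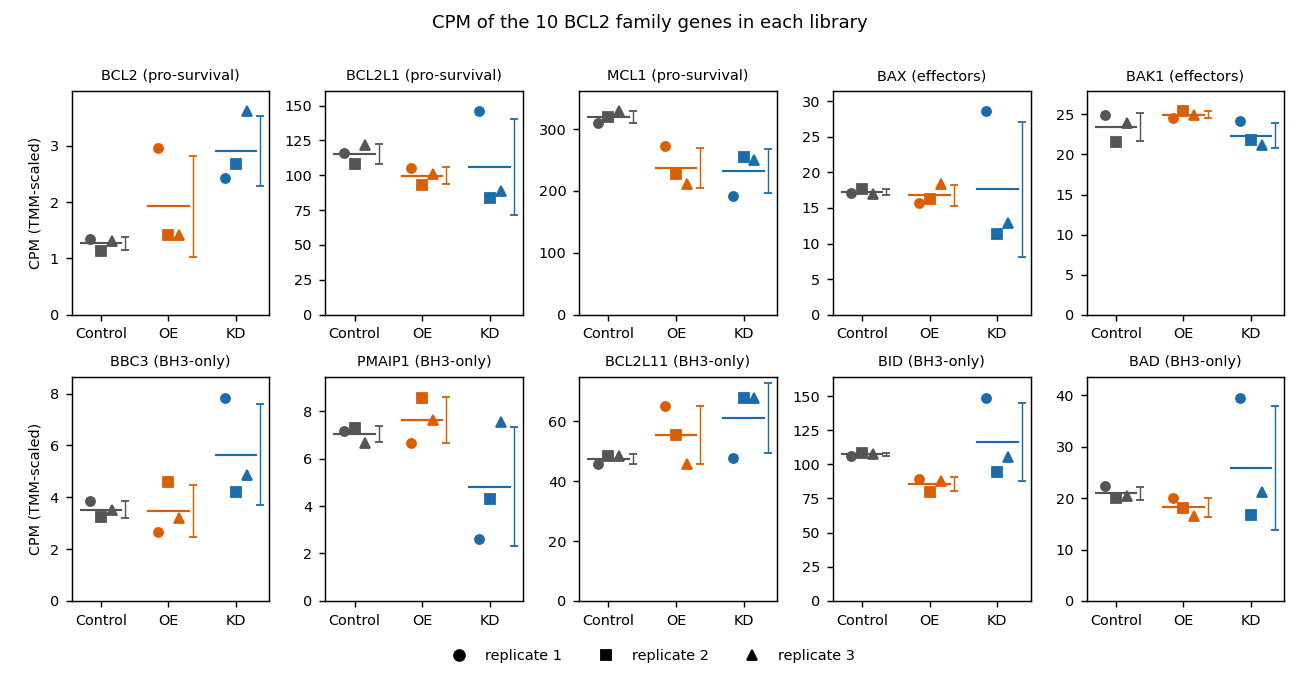
CPM (TMM-scaled, linear axes from 0, a separate scale for each gene) of the 10 members in each library of Control, CTCFL-OE (OE) and CTCFL-KD (KD); symbols mark replicates 1 to 3, horizontal lines the group means and bars 1 SD around the mean (n = 3). The 3 CTCFL-KD libraries of *BCL2* (2.44 to 3.62 CPM) lie above the Control libraries (1.13 to 1.35 CPM), and on this scale CTCFL-KD replicate 1 lies far above its group for *BAX*, *BAD*, *BID* and *BCL2L1*.

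Leaving out CTCFL-KD replicate 1 changed the number of calls. Without it, 4 of 10 members passed in CTCFL-KD, with *BCL2* and *BCL2L11* higher and *BAX* and *BCL2L1* lower, where 49.9% of 18393 genes tested passed. Without Control replicate 2, 0 members passed in CTCFL-KD.

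Among the pro-survival genes, *BCL2* rose in CTCFL-KD. Its levels were 1.35, 1.13 and 1.32 CPM in Control replicates 1 to 3, 2.44, 2.68 and 3.62 CPM in CTCFL-KD, and 2.96, 1.41 and 1.41 CPM in CTCFL-OE. Every CTCFL-KD and CTCFL-OE library lay above the highest Control library, but in CTCFL-OE replicates 2 and 3 did so by a small margin and replicate 1 carried the difference. In TPM only 3 of these 6 libraries lay above the Control range of 0.276 to 0.318, since CTCFL-KD replicate 1 was at 0.298 and CTCFL-OE replicates 2 and 3 at 0.298 and 0.250. In CTCFL-KD its log2 fold change was 1.21 (standard error 0.33, 95% interval 0.49 to 1.94, edgeR adjusted p = 0.0145), a 2.32-fold increase. In CTCFL-OE that value was 0.63 (95% interval -0.11 to 1.36, edgeR adjusted p = 0.348), which did not pass. The call in CTCFL-KD was lost without Control replicate 2 (log2 fold change 1.12, edgeR adjusted p = 0.0641) and without CTCFL-KD replicate 3 (1.02, edgeR adjusted p = 0.0551), and held without CTCFL-KD replicate 1 (1.32, edgeR adjusted p = 0.00823).

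*MCL1*, whose protein turns over rapidly and binds NOXA and BIM, had the opposite sign and was below Control in every treated library without passing the test. Its levels were 309, 319.6 and 329 CPM in Control, 272, 227 and 211 CPM in CTCFL-OE and 192, 255 and 249 CPM in CTCFL-KD. Against Control, the log2 fold change was -0.43 in CTCFL-OE (95% interval -0.84 to -0.02, edgeR adjusted p = 0.264) and -0.46 in CTCFL-KD (95% interval -0.87 to -0.05, edgeR adjusted p = 0.0744). The latter was -0.34 without CTCFL-KD replicate 1 (edgeR adjusted p = 0.0545). *MCL1* passed in CTCFL-KD with DESeq2 (adjusted p = 0.0303) and in CTCFL-OE when edgeR was fitted to those 2 groups alone (adjusted p = 0.0801). In the CTCFL-OE libraries the share of mitochondrially encoded counts was 7.40, 12.4 and 14.9% in replicates 1 to 3, in the reverse order of the *MCL1* levels, and its part in them was not tested. Exons of *MCL1* overlap *ADAMTSL4* on the other strand and *ADAMTSL4-AS1* on the same strand, and the strand setting of the counting is not given in the sources used here.

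*BCL2L1* split by library in CTCFL-KD. Its levels were 116, 108 and 122 CPM in Control, 105, 93.2 and 101 CPM in CTCFL-OE and 146, 83.7 and 88.8 CPM in CTCFL-KD. The CTCFL-OE libraries all lay just below Control, whereas in CTCFL-KD replicate 1 was the highest of all 9 libraries and replicates 2 and 3 the lowest. In TPM that split was absent, with 53.7, 54.1 and 60.1 in the CTCFL-KD libraries, all below the Control range of 79.4 to 88.1. The log2 fold changes were -0.21 in CTCFL-OE (edgeR adjusted p = 0.644) and -0.12 in CTCFL-KD (95% interval -0.60 to 0.36, edgeR adjusted p = 0.690). With CTCFL-KD replicate 1 left out the latter was -0.41 (standard error 0.11, edgeR adjusted p = 0.00976), and *BCL2L1* passed as lower. In a fit whose offsets remove each library's trend on transcript length and GC content, with all 9 libraries, it was -0.36 and did not pass (edgeR adjusted p = 0.0983). Its exons overlap the antisense gene *ABALON*.

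The effectors gave no call with all libraries. *BAX* had 17.1, 17.7 and 16.97 CPM in Control, 15.7, 16.2 and 18.4 CPM in CTCFL-OE and 28.6, 11.4 and 12.9 CPM in CTCFL-KD. Within CTCFL-KD, replicate 1 lay above every Control library and replicates 2 and 3 below. In TPM all 3 (17.1, 11.9 and 14.1) lay below the Control range of 19.5 to 21.2. The log2 fold change in CTCFL-KD was 0.02 (95% interval -0.64 to 0.68, edgeR adjusted p = 0.968). Without CTCFL-KD replicate 1 it was -0.51 (standard error 0.13, 95% interval -0.79 to -0.22, edgeR adjusted p = 0.00766), a reversal of sign with a call. With length and GC offsets and all 9 libraries, it was -0.28 (edgeR adjusted p = 0.269). *BAX* in CTCFL-OE had a log2 fold change of -0.04 (edgeR adjusted p = 0.955). Its CTCFL-OE libraries overlapped Control in CPM but lay below the Control range in TPM (18.3, 16.7 and 15.9).

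*BAK1* differed little between the groups. It had 24.9, 21.6 and 23.9 CPM in Control, 24.5, 25.4 and 24.9 CPM in CTCFL-OE and 24.2, 21.8 and 21.1 CPM in CTCFL-KD. The ranges of both treated groups overlapped that of Control. In TPM all CTCFL-KD libraries (16.9, 26.7 and 27.1) lay below the Control range of 30.1 to 33.3. The log2 fold changes were 0.09 in CTCFL-OE (95% interval -0.24 to 0.42) and -0.07 in CTCFL-KD (95% interval -0.40 to 0.26), with edgeR adjusted p of 0.789 and 0.735. The value in CTCFL-KD was -0.12 without replicate 1 (edgeR adjusted p = 0.358) and -0.27 with length and GC offsets (edgeR adjusted p = 0.153).

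Of the 5 BH3-only genes, none passed in either comparison with all libraries, and their signs in CTCFL-KD were mixed. *BBC3*, a target of p53, had 3.86, 3.23 and 3.49 CPM in Control, 2.65, 4.60 and 3.20 CPM in CTCFL-OE and 7.85, 4.22 and 4.87 CPM in CTCFL-KD. All CTCFL-KD libraries lay above Control, most of all replicate 1 (in TPM replicate 3, at 4.35), while CTCFL-OE straddled the Control range. Its log2 fold change in CTCFL-KD was 0.67 (95% interval 0.04 to 1.29, edgeR adjusted p = 0.0868). Leaving out CTCFL-KD replicate 1 gave 0.38 (edgeR adjusted p = 0.211), and length and GC offsets gave 0.22 (edgeR adjusted p = 0.396).

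*PMAIP1*, whose product NOXA pairs chiefly with MCL1, differed widely within CTCFL-KD. It had 7.16, 7.31 and 6.63 CPM in Control, 6.66, 8.57 and 7.62 CPM in CTCFL-OE and 2.62, 4.28 and 7.56 CPM in CTCFL-KD. CTCFL-KD replicates 1 and 2 lay below every Control library and replicate 3 above them all, or within their range in TPM (9.82). The log2 fold change in CTCFL-KD was -0.52 (95% interval -1.20 to 0.16, edgeR adjusted p = 0.204), and without CTCFL-KD replicate 3 it was -1.01 (edgeR adjusted p = 0.0148). It was -0.24 without CTCFL-KD replicate 1 (edgeR adjusted p = 0.397) and -0.23 with length and GC offsets (edgeR adjusted p = 0.571), so its size depended on the libraries and the setting.

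*BCL2L11*, which encodes the BIM activator, had 45.6, 48.5 and 48.4 CPM in Control, 65.1, 55.5 and 45.7 CPM in CTCFL-OE and 47.6, 67.6 and 67.9 CPM in CTCFL-KD. CTCFL-KD replicates 2 and 3 were the highest of the 9 libraries, and replicate 1 lay within the Control range. In TPM replicate 1 (10.9) was the lowest of the 9 libraries, and CTCFL-OE replicate 1 (29.2) the highest. The log2 fold change in CTCFL-KD was 0.36 (95% interval -0.07 to 0.79, edgeR adjusted p = 0.163), and without CTCFL-KD replicate 1 it was 0.52 (standard error 0.14, edgeR adjusted p = 0.00976), a 1.43-fold increase that passed. In CTCFL-OE it was 0.22 (edgeR adjusted p = 0.574). Its exons overlap *MIR4435-2HG* on the other strand, as those of *BAK1* overlap *GGNBP1* and those of *BAD* overlap *GPR137*. Exons of *BBC3* overlap *MIR3190* on the other strand and *MIR3191* on the same strand.

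*BID*, which links death receptors to mitochondria once caspase-8 cleaves its product, had 106, 108 and 108 CPM in Control, 89.4, 79.6 and 87.8 CPM in CTCFL-OE and 149, 94.4 and 105 CPM in CTCFL-KD. The Control libraries (SD 1.04 CPM) lay wholly above the CTCFL-OE libraries, and CTCFL-KD lay on both sides of it. In TPM all CTCFL-KD libraries (52.0, 57.9 and 67.8) lay below the Control range of 71.1 to 75.8. Overexpression gave a log2 fold change of -0.33 (95% interval -0.75 to 0.09, edgeR adjusted p = 0.390), and *BID* passed there only when edgeR was fitted to those 2 groups alone (adjusted p = 0.0883). In CTCFL-KD it was 0.11 (edgeR adjusted p = 0.663), 0.03 with length and GC offsets (edgeR adjusted p = 0.886) and, with its sign turned, -0.10 without CTCFL-KD replicate 1 (edgeR adjusted p = 0.449).

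*BAD*, whose product is held inactive by phosphorylation through growth factor signalling, had 22.4, 20.1 and 20.4 CPM in Control, 20.1, 18.2 and 16.5 CPM in CTCFL-OE and 39.6, 16.8 and 21.2 CPM in CTCFL-KD. Within CTCFL-KD, replicate 1 lay far above Control, replicate 2 below and replicate 3 within its range. In TPM all 3 (35.8, 26.6 and 35.2) lay below the Control range of 36.3 to 38.8. Its log2 fold change in CTCFL-KD was 0.29 (95% interval -0.31 to 0.90, edgeR adjusted p = 0.418), and without CTCFL-KD replicate 1 it was -0.14 (edgeR adjusted p = 0.423). The sign also turned with length and GC offsets, at -0.08 (edgeR adjusted p = 0.717). In CTCFL-OE the log2 fold change of *BAD* was -0.20 (edgeR adjusted p = 0.733). Its CTCFL-OE libraries overlapped Control in CPM but lay below the Control range in TPM (35.6, 28.4 and 21.5).

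**Figure D2:**
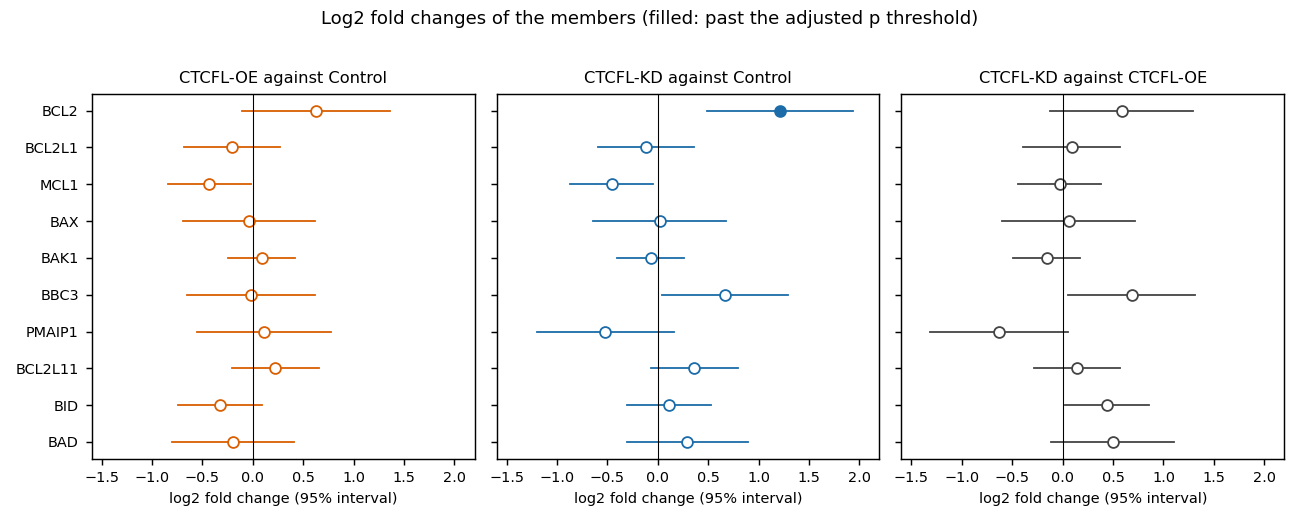
Log2 fold changes of the 10 members (points) with 95% intervals (lines) in the 3 comparisons, from edgeR on all 9 libraries; filled points passed the adjusted p threshold (0.1 for CTCFL-OE, 0.05 otherwise). The single filled point is *BCL2* in CTCFL-KD at 1.21, and no interval of *BAX* or *BAK1* excludes 0.

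**Figure D3:**
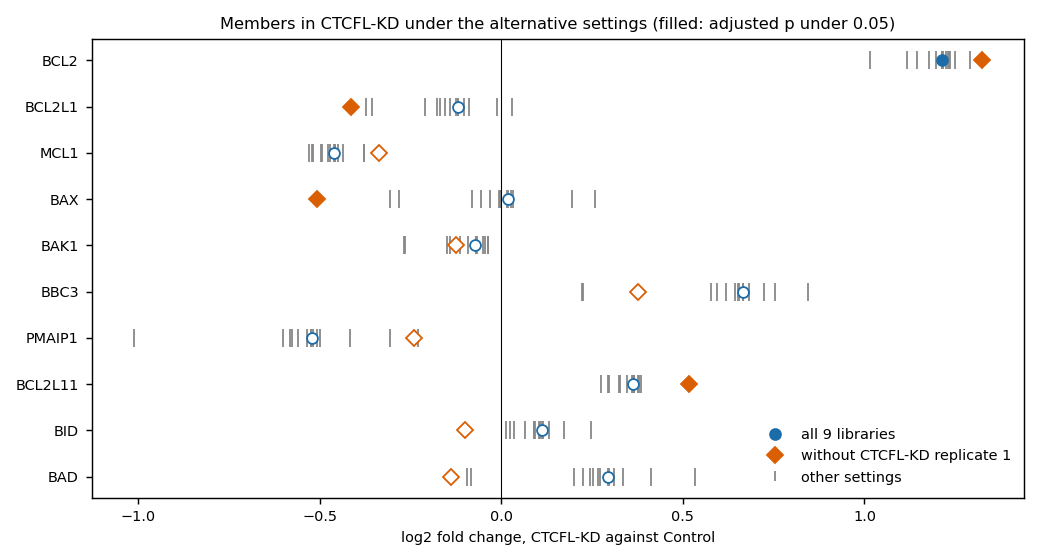
Log2 fold changes of the members in CTCFL-KD with all 9 libraries (circles), without CTCFL-KD replicate 1 (diamonds) and under the other 14 alternative settings (ticks); filled circles and diamonds have an adjusted p under 0.05. *BAX* moves from 0.02 to -0.51 and *BCL2L1* from -0.12 to -0.41 without that library, while *BCL2* lies between 1.02 and 1.32 under all 15 alternatives.

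The treated groups were also set against each other, in a contrast in which the shared Control libraries cancel. By edgeR, 0 of 10 members passed, where 26.8% of all genes tested did. At an unadjusted p under 0.05 there were 2, *BBC3* and *BID*, a lower share than the 40.2% of all genes, and DESeq2 called 0 (24.4% of genes with an adjusted p). *BBC3* was higher in CTCFL-KD than in CTCFL-OE by 0.68 on the log2 scale (95% interval 0.05 to 1.32, edgeR adjusted p = 0.0993) and *BID* by 0.44 (95% interval 0.02 to 0.86, edgeR adjusted p = 0.107). Without CTCFL-KD replicate 1 these differences were 0.39 (edgeR adjusted p = 0.219) and 0.23 (edgeR adjusted p = 0.113), and over 15 alternatives they ran from 0.39 to 0.93 and from 0.23 to 0.55, with no call. The libraries of the treated groups did not overlap for 2 members (39.8% of all genes), *BID* with CTCFL-KD above and *BAK1* with CTCFL-KD below, whereas in TPM both overlapped. For *BCL2* the difference was 0.59 (95% interval -0.12 to 1.29, edgeR adjusted p = 0.197), so the test did not separate its level in CTCFL-KD from that in CTCFL-OE. Without CTCFL-OE replicate 1 the *BCL2* difference was 1.05 (edgeR adjusted p = 0.0210), and without CTCFL-KD replicate 1 it was 0.68 (edgeR adjusted p = 0.120). For *MCL1* it was -0.03 (95% interval -0.44 to 0.39, edgeR adjusted p = 0.928), and 0.09 without CTCFL-KD replicate 1 (edgeR adjusted p = 0.593). One member also passed without CTCFL-KD replicate 1, *BAX* at -0.47 (edgeR adjusted p = 0.0157), and one without CTCFL-KD replicate 3, *PMAIP1* at -1.12 (edgeR adjusted p = 0.0139).

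The balance between the roles was described within each library, where the scaling between libraries drops out. The effectors and BH3-only genes together made up 46.1, 45.5 and 44.2% of the summed TPM of the members of Control libraries, 47.6, 50.5 and 50.5% for CTCFL-OE and 57.7, 49.0 and 51.7% for CTCFL-KD. Every treated library lay above every Control library. The group means were 45.3 ± 0.970% (SD, n = 3) for Control, 49.5 ± 1.70% for CTCFL-OE and 52.8 ± 4.44% for CTCFL-KD, or 50.3% without replicate 1 of the last group. *MCL1* was the largest component by group mean, with 35.6 ± 0.921% for Control, 30.9 ± 2.16% for CTCFL-OE and 28.5 ± 7.63% for CTCFL-KD. In CTCFL-KD replicate 1 it held 19.8%, below *BCL2L1* at 22.4% and *BID* at 21.7%, and the mean of the other two CTCFL-KD libraries was 32.8%. *BCL2* contributed 0.0696 ± 0.00587%, 0.123 ± 0.0481% and 0.175 ± 0.0504%, so the member that passed in CTCFL-KD formed the smallest part of the pool. These shares are ratios of transcripts weighted by length and say nothing of protein.

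**Figure D4:**
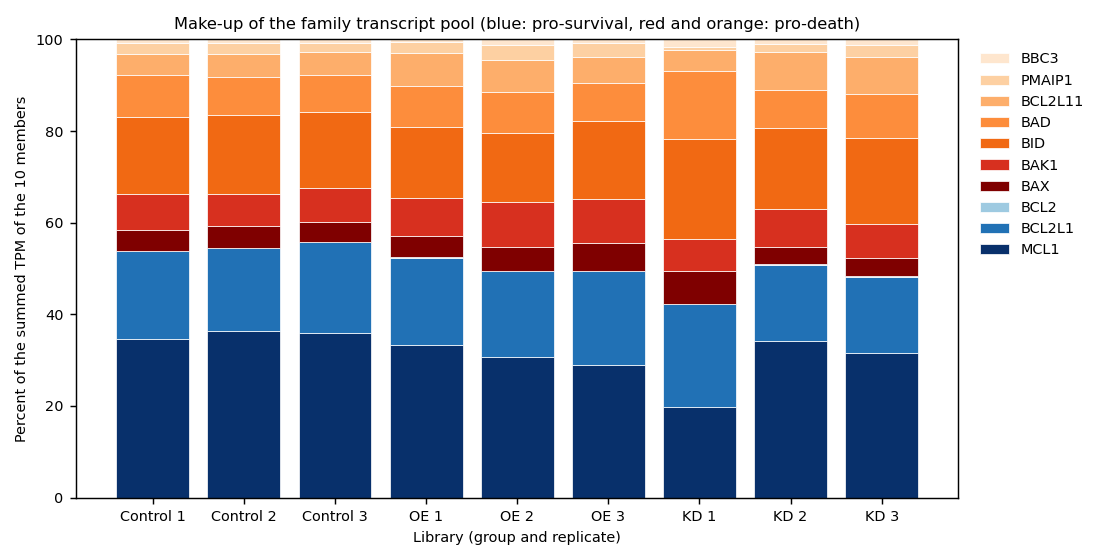
Share of each member (percent of the summed TPM of the 10 members, y axis from 0 to 100) in each of the 9 libraries, with pro-survival genes in blue at the bottom, effectors in dark red and red, and BH3-only genes in orange; the segment of *BCL2* is too thin to see in most libraries. The blue segments end at 53.9 to 55.8% in Control and lower in every treated library, lowest in CTCFL-KD replicate 1.

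The ratio of *BAX* to *BCL2*, often used as an index of readiness for apoptosis in cells, was computed within each library. The log2 ratio of counts was 3.66, 3.97 and 3.69 for Control, 2.40, 3.52 and 3.71 for CTCFL-OE and 3.55, 2.09 and 1.83 for CTCFL-KD. All CTCFL-KD libraries lay below the Control range, with replicate 1 just under it. The difference from Control was -1.28 in CTCFL-KD (exact two-sided permutation p = 0.1, the smallest that 3 against 3 libraries allow, BH-adjusted p = 0.3 over 3 comparisons), or -1.81 without CTCFL-KD replicate 1, and -0.56 in CTCFL-OE (exact two-sided permutation p = 0.3, BH-adjusted p = 0.3). Neither passed, and the design could not reach 0.05.

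Of 13 other BCL2 family genes, 9 could be tested. *BCL2A1*, *BCL2L10*, *BCL2L14* and *BCL2L15* had at most 8 counts in any library and were left out. In CTCFL-OE 2 of 9 passed, both lower, beside 3.15% of all genes. In CTCFL-KD 4 of 9 passed, with 2 higher and 2 lower, a share of 44.4% close to the 38.2% of all genes. *BNIP3*, a mitochondrial protein gene of hypoxia and mitophagy, had 52.7, 50.1 and 58.3 CPM in Control, 27.6, 26.3 and 23.3 CPM in CTCFL-OE and 101, 83.0 and 178 CPM in CTCFL-KD. Its groups did not overlap, with CTCFL-OE below and CTCFL-KD above Control. Relative to Control, the log2 fold change of *BNIP3* was -1.06 in CTCFL-OE (standard error 0.26, edgeR adjusted p = 0.0795) and 1.17 in CTCFL-KD (standard error 0.26, edgeR adjusted p = 0.00505), past the DEG threshold on both sides, and the difference between the treated groups was 2.23 (edgeR adjusted p = 2.04e-04). Without CTCFL-KD replicate 3 its value in CTCFL-KD was 0.77 (edgeR adjusted p = 0.0111), which passed but was no longer a DEG. *BMF*, a BH3-only gene of the cytoskeleton and of detachment, had 77.5, 85.8 and 80.3 CPM in Control, 38.0, 50.2 and 52.2 CPM in CTCFL-OE and 74.4, 72.3 and 67.4 CPM in CTCFL-KD. It fell in CTCFL-OE by 0.80 on the log2 scale (edgeR adjusted p = 0.0546), and in CTCFL-KD its log2 fold change of -0.19 did not pass (edgeR adjusted p = 0.406). The calls of *BNIP3* and *BMF* in CTCFL-OE were each lost without any one Control or CTCFL-OE library other than CTCFL-OE replicate 1. The edgeR adjusted p reached 0.320 and 0.257, and the *BNIP3* value fell just inside the DEG threshold without CTCFL-OE replicate 3.

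*BOK*, an effector relative of BAX and BAK, fell in CTCFL-KD. It had 35.4, 34.3 and 37.5 CPM in Control, 32.3, 29.2 and 34.1 CPM in CTCFL-OE and 23.3, 20.1 and 18.6 CPM in CTCFL-KD. Relative to Control, *BOK* was lower by a log2 difference of -0.79 in CTCFL-KD (standard error 0.16, edgeR adjusted p = 0.00305). The calls of *BOK* and *BNIP3* in CTCFL-KD held without each single Control or CTCFL-KD library. *BCL2L2*, the pro-survival gene of BCL-W, was at 29.0 ± 2.02 CPM (SD, n = 3) in Control and 21.6 ± 0.829 CPM in CTCFL-KD (log2 fold change -0.43, edgeR adjusted p = 0.0433). *HRK*, a BH3-only gene, was at 3.30 ± 0.0772 CPM in Control, 5.04 ± 0.424 CPM in CTCFL-KD (log2 fold change 0.61, edgeR adjusted p = 0.0370) and 5.61 ± 1.08 CPM in CTCFL-OE (0.76, edgeR adjusted p = 0.101). With the replicate number as a block, *BCL2L2* and *HRK* no longer passed in CTCFL-KD (edgeR adjusted p = 0.0710 and 0.0569), and 2 of 9 genes did, *BNIP3* and *BOK*. The calls of *BCL2L2* and *HRK* were also lost without any one Control or CTCFL-KD library other than CTCFL-KD replicate 1. The edgeR adjusted p reached 0.158 and 0.119. *BIK*, *BNIP3L*, *BCL2L12* and *BCL2L13* passed in neither comparison with all 9 libraries in edgeR. Of 15 alternative settings, *HRK* passed in CTCFL-OE under 8, *BNIP3L* under 6 (edgeR adjusted p down to 0.0199) and *BIK* under 4, while in CTCFL-KD *BCL2L13* passed under 4 and *BIK* under 3. *BCL2L12* went from 0.16 to -0.53 in CTCFL-KD without replicate 1 of that group (edgeR adjusted p = 0.00807).

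**Figure D5:**
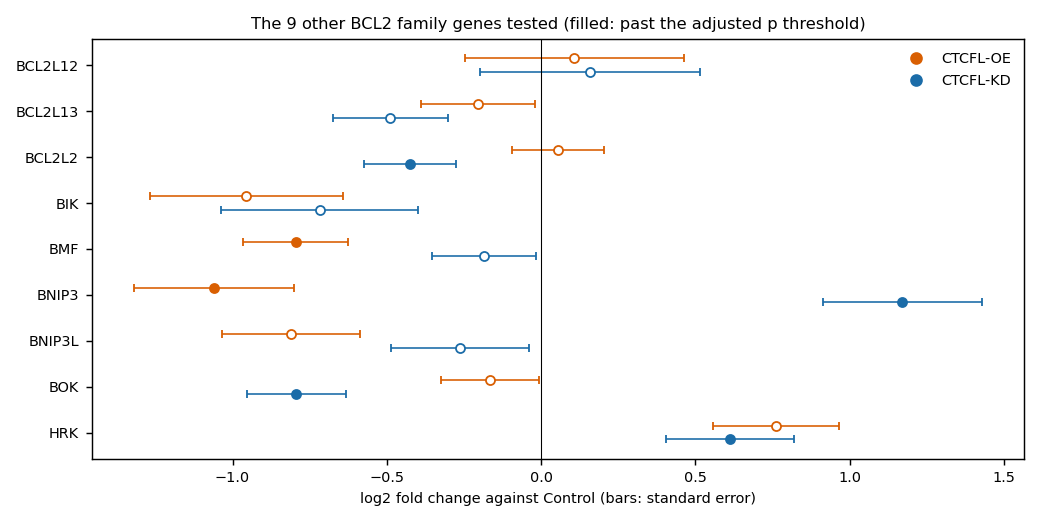
Log2 fold changes against Control of the 9 other BCL2 family genes tested, with standard errors as bars; filled points passed the adjusted p threshold (0.1 for CTCFL-OE, 0.05 for CTCFL-KD). *BNIP3* has filled points on opposite sides of 0 (-1.06 and 1.17), while *BMF* is filled in CTCFL-OE only and *BOK*, *BCL2L2* and *HRK* in CTCFL-KD only; the difference between the treated groups passed for *BNIP3*, *BMF*, *BOK* and *BCL2L2* and not for *HRK*.

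Around the family, 8 lists of 98 genes (the other BCL2 family genes included) held 90 that could be tested. In CTCFL-KD 35 of them passed, 12 higher and 23 lower, which is 38.9% beside 38.2% of all genes, with a median log2 fold change of -0.11. Over all genes the calls were 3804 higher and 2996 lower. Of the 35 calls of these lists, 20 held without each single Control or CTCFL-KD library and 15 were lost without at least one. The count was 22 without Control replicate 1, 22 without Control replicate 2, 20 without Control replicate 3 and 49 without CTCFL-KD replicate 1. Of the 35 calls, 33 passed in the same direction without CTCFL-KD replicate 1, and the other two were *CHAC1* and *TRIB3*. With the replicate number as a block, 30 of the 90 genes passed, with 7 of the 35 calls lost and 2 gained. By list, the block left 3 apoptosome and caspase genes, 5 of the death receptor arm, 5 of p53 and its targets and 6 stress factors. Downstream of the mitochondrion, 4 of 10 apoptosome and caspase genes passed. *CYCS*, which encodes cytochrome c, was lower in CTCFL-KD, at 101 ± 5.49 CPM (SD, n = 3) against 193 ± 17.96 CPM (log2 fold change -0.94, edgeR adjusted p = 0.0119), and *ENDOG*, a mitochondrial nuclease gene, was higher (1.15, edgeR adjusted p = 0.00524). Of 8 inhibitor of apoptosis genes and antagonists tested, 2 passed as lower, *BIRC3* (-2.41, edgeR adjusted p = 0.000520) and *XIAP* (-0.85, edgeR adjusted p = 0.0311), the latter lost without any one Control library or CTCFL-KD replicate 2 (edgeR adjusted p of up to 0.0827).

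In the death receptor arm, 4 of 12 genes tested passed in CTCFL-KD (33.3%, beside 38.2% of all genes). The ligand gene *TNFSF10* (TRAIL) went from 37.5 ± 3.14 CPM in Control to 7.17 ± 0.668 CPM (log2 fold change -2.38, edgeR adjusted p = 2.54e-05), and in CTCFL-OE it was also lower at 15.9 ± 4.21 CPM (-1.24, edgeR adjusted p = 0.0224), a call lost without any one Control library or CTCFL-OE replicate 2 (edgeR adjusted p of up to 0.139). *FAS* (-1.42, edgeR adjusted p = 0.00372) and *CASP8* (-0.79, edgeR adjusted p = 0.0119) were lower in CTCFL-KD, whereas the TRAIL receptor gene *TNFRSF10B* was higher (0.82, edgeR adjusted p = 0.0267). The call of *TNFRSF10B* was lost without any one Control or CTCFL-KD library other than CTCFL-KD replicate 1 (edgeR adjusted p of up to 0.0875). At the outer membrane, 5 of 10 channel, fission and fusion genes passed in CTCFL-KD (50%, beside 38.2% of all genes), and all 5 were lower. Of these, *OPA1*, a fusion gene, is named because it was lost with the replicate block (edgeR adjusted p = 0.0586). Among them were *VDAC1* (-0.92, edgeR adjusted p = 0.00203) and *DNM1L*, the fission GTPase gene (-0.78, edgeR adjusted p = 0.00496). Of the 10 genes that degrade or hold BCL2 family proteins, 3 passed (30%, beside 38.2% of all genes), all lower. *YWHAZ*, whose product retains phosphorylated BAD, led them (-1.09, edgeR adjusted p = 0.00280). *BAK1*, *BNIP3*, *CYCS*, *VDAC1* and *YWHAZ* have processed pseudogenes, so their counts depend on how reads with several alignments were treated, which is not given in the sources used here.

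Upstream, 6 of 19 genes of p53 and its other targets passed in CTCFL-KD (31.6%, beside 38.2% of all genes), 3 in each direction. *GDF15* was higher (log2 fold change 2.46, edgeR adjusted p = 0.00221), as was *MDM4*, an inhibitor of p53 (0.95, edgeR adjusted p = 0.00548), and *PLK3* was lower (-1.53, edgeR adjusted p = 0.000565). Of 12 stress transcription factors and their feedback genes, 7 passed (58.3%, beside 38.2% of all genes), 5 higher and 2 lower. *JUN* (0.82, edgeR adjusted p = 0.00433) and *DDIT3*, which encodes CHOP (1.32, edgeR adjusted p = 0.0122), were higher, and *TP63* (-2.09, edgeR adjusted p = 0.00138) and *FOXO1* (-0.86, edgeR adjusted p = 0.00524) were lower. The call of *DDIT3* was lost without Control replicate 3 (1.23, edgeR adjusted p = 0.0511).

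In CTCFL-OE, 9 of the same 90 genes passed, 2 higher (*GDF15* and *MDM4*) and 7 lower (*BNIP3*, *BMF*, *CASP6*, *TNFSF10*, *CDKN1A*, *TP63* and *FOXO1*), which is 10% beside 3.15% of all genes, where 354 were higher and 207 lower. None of these 9 calls held without each single library, and the count was 0 without Control replicate 1, 2 or 3 or CTCFL-OE replicate 2, 1 without CTCFL-OE replicate 3 and 25 without CTCFL-OE replicate 1. *CASP6* had a log2 fold change of -0.76 (edgeR adjusted p = 0.0662) and *CDKN1A*, the cell cycle inhibitor p21, of -0.90 (edgeR adjusted p = 0.0925). Between the treated groups, 20 of the 90 genes passed, 10 in each direction, or 22.2% beside 26.8% of all genes.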

How the data were processed

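RNA-seq of OVCAR3 cells was analysed in 3 groups of 3 biological replicates. The study's methods name FastQC, Trimmomatic, STAR alignment to GRCh38 and featureCounts (Rsubread), with TruSeq Stranded mRNA libraries, and the submitters' processing notes list Trimmomatic, kallisto, featureCounts and GRCh38. The annotation release, strand setting and treatment of multi-mapping reads are not given in the sources used here. The deposited values are raw counts per gene made by the authors, and the 9 library files equal their 9 matrix columns. The BCL2 family members and all gene lists were chosen with earlier results of these data known.

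Symbols, positions, exon lengths and coding sequences came from GENCODE release 44 (GRCh38), which named 60419 of 60660 identifiers. Counts were filtered with filterByExpr, scaled by TMM and fitted with edgeR 4.0.16 in R 4.3.3 (robust quasi-likelihood, condition only, all 9 libraries), and p-values were adjusted by Benjamini-Hochberg over 17794 genes. Thresholds follow the study: adjusted p under 0.1 for CTCFL-OE and 0.05 for CTCFL-KD, with a log2 fold change beyond 1 for a DEG. DESeq2 1.42.0, the other scalings, filters, fits and left-out libraries are alternatives. Single libraries were left out only from the groups compared. Exact permutation tests used scipy 1.17.1. The edgeR step was tested on simulated data. Depth was 14332622 to 24490080 counts per library, and 3 counts, the limit a count of 0 allows, equal 0.117 to 0.271 CPM. Reads carry no molecular identifiers, so such limits cover counting error only.

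All 10 members and the tested other BCL2 family genes were named, and of each other list up to 4 genes with the lowest adjusted p among those that passed against Control. Some of these are not reported here. Of CTCFL-KD and Control, same-numbered replicates deviated together (correlations of 0.433, 0.224 and 0.319 over 9888 genes). With the length and GC trend removed, the correlations were 0.235, 0.115 and 0.243. The main fit and the permutation tests took no account of this and were unpaired. A block for the replicate number was fitted as an alternative, and its results are given where the number of calls of a list changed. No label explains why same-numbered replicates deviated together.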

Additional observations from a re-analysis of the deposited data

Results flagged for a closer look

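For 4 of the 9 other BCL2 family genes tested, the response to CTCFL-KD differed from that to CTCFL-OE in the test of the difference itself (edgeR's QL test, BH-adjusted over all genes tested), where 26.8% of all genes passed. Over the 8 lists that hold them, 20 of 90 genes did. *BNIP3* was higher in CTCFL-KD than in CTCFL-OE by 2.23 on the log2 scale (adjusted p = 2.04e-04). This call held without each single CTCFL-OE or CTCFL-KD library. *BMF* was higher in CTCFL-KD by 0.61 (adjusted p = 0.0221), a call lost under 4 of 15 alternatives (adjusted p of up to 0.103), namely edgeR on the 2 groups compared, no low-count filter, without CTCFL-OE replicate 2 (adjusted p = 0.0548) and without CTCFL-KD replicate 2 (adjusted p = 0.0587). *BOK* differed by -0.63 (adjusted p = 0.0147), lost with edgeR on the 2 groups (adjusted p = 0.0772) and without CTCFL-KD replicate 3 (adjusted p = 0.0547). *BCL2L2* differed by -0.48 (adjusted p = 0.0353), lost under 7 of 15 alternatives (adjusted p of up to 0.141), namely edgeR on the 2 groups, no low-count filter, the replicate block (adjusted p = 0.0602) and without CTCFL-OE replicate 2 or 3 or CTCFL-KD replicate 2 or 3 (adjusted p of up to 0.105). The knockdown came from separate experiments, so its effect and the difference between experiments cannot be told apart here.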

How the results depend on the processing

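Each comparison was refitted under 15 alternatives. The number of members that passed in CTCFL-OE was 0 under all of them except edgeR on the 2 groups compared (2, *MCL1* and *BID*). In CTCFL-KD it was 2 with DESeq2 and 0 to 4 with one library left out, and between the treated groups 0 to 1 with one library left out. The number of genes of the 8 lists that passed in CTCFL-OE was 29 with edgeR on the 2 groups, 15 with length and GC offsets, 15 with these offsets and the replicate block, and 0 to 25 with one library left out. In CTCFL-KD it was 20 to 49 with one library left out, and in CTCFL-KD against CTCFL-OE it was 9 with edgeR on the 2 groups and 11 to 32 with one library left out. By list in CTCFL-KD, other BCL2 family genes numbered 2 with the replicate block and 2 without the low-count filter, inhibitors of apoptosis 1 with edgeR on the 2 groups and 1 with at least 10 counts in every library, and degraders and stabilisers 5 with the replicate block and offsets. With one library left out, the lists in CTCFL-KD held 2 to 6 (other BCL2 family genes), 3 to 8 (apoptosome and caspases), 1 to 3 (inhibitors of apoptosis), 3 to 7 (death receptor arm), 3 to 6 (outer membrane), 2 to 5 (degraders and stabilisers), 3 to 8 (p53 targets) and 3 to 6 (stress factors) genes that passed. Without CTCFL-KD replicate 1, *BAX* was -0.51 and *BCL2L12* -0.53 against Control and -0.47 and -0.64 against CTCFL-OE, all reversed and past the threshold, with highest values over the left-out libraries of 0.26, 0.44, 0.27 and 0.34. With the replicate block, the pairing by number left *BCL2* in CTCFL-KD at an adjusted p of 0.0173 and changed no member's call, whereas between CTCFL-OE and Control the same-numbered replicates did not deviate together (correlations of -0.042, 0.258 and -0.042). With the longest transcript as length, Control levels were 0.405 TPM for *BCL2*, 168 for *MCL1*, 30.4 for *BAX*, 25.4 for *BAK1*, 4.57 for *BBC3*, 8.86 for *PMAIP1*, 103 for *BID* and 43.4 for *BAD*, and the share of effectors and BH3-only genes was 48.5% in Control and 52.2% in CTCFL-OE. Counts of *BCL2* were low (23 to 66 per library), and counting error was not separated from the spread between replicates. The causes of these shifts were not tested.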
